A study of Mus musculus with 13 samples.

Results

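Wt1, Tcf21, Lmx1b, Foxc1, Foxc2 and Foxl1, 6 transcription factor genes known from podocytes or the tissue around them, were followed through the open chromatin of the mouse kidney. Their members here were the deposited peaks that overlap the gene body or the 2 kb upstream of it, called window peaks, together with distal peaks whose nearest edge lies within 100 kb of the start of the gene (mm10, GENCODE M21). This gave 242 of the 300755 peaks, of which 43 were window peaks. Wt1 had 54, Tcf21 40, Lmx1b 52, Foxc1 40, Foxc2 52 and Foxl1 54, and 50 peaks in reach of both Foxc2 and Foxl1, which are neighbours on chromosome 8, were counted once in the total.

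Single nuclei ATAC-seq (snATAC-seq) was performed on nuclei of whole mouse kidneys at postnatal day 0 (P0, 2 samples), P21 (1 sample) and P56 (2 samples), and P21 and P56 together formed the adult group (3 samples). The labels give the stage and the tissue but no strain, genotype, sex or treatment for these samples. They do not say that replicates came from separate animals, so the p-values measure the spread between these samples. Each nucleus carries the cluster name of the deposited annotation, and 27652 of the 28316 nuclei fall in 13 clusters, named here as nephron progenitors, podocytes, proximal convoluted and straight tubule (PCT, PST), loop of Henle, distal convoluted tubule (DCT), connecting tubule (CNT), principal cells, intercalated cells, endothelial cells, immune cells, stroma 1 and stroma 2.

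Podocytes are the epithelial cells that wrap the capillaries of the glomerulus and form the slit diaphragm of its filter. They arise from nephron progenitors, which still form nephrons at birth and are used up soon after. WT1 is a zinc finger factor needed both in the progenitors and in mature podocytes, TCF21 is a basic helix-loop-helix factor of podocytes and of stromal cells, LMX1B is a LIM homeodomain factor whose loss causes nail-patella syndrome, and FOXC1, FOXC2 and FOXL1 belong to the forkhead family. FOXC1 and FOXC2 are known from podocytes, vessels and mesenchyme, and FOXL1 from mesenchyme under epithelia.

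The 6 peaks whose central 300 bases are printed here are distal or intronic members, 1 for most genes, that were open in podocytes and that the results below turn on. A peak is named by the distance in kb from the start of the gene to the centre of the peak, negative when upstream in the direction of transcription. The plus strand of GRCm38 (mm10) is shown 5′ to 3′ in lower case, and capitals mark letters of a searched motif on either strand. The Wt1 −63.2 kb and −57.1 kb peaks and the Tcf21 −48.6 kb peak are intergenic, the Lmx1b +34.7 kb peak lies in an intron of Lmx1b, the Foxc1 +12.2 kb peak is intergenic, and the Foxl1 −2.6 kb peak, which is also +9.2 kb from Foxc2, lies in an intron of the non-coding gene Gm20388.
Wt1 −63.2 kb, chr2:105063180-105063479: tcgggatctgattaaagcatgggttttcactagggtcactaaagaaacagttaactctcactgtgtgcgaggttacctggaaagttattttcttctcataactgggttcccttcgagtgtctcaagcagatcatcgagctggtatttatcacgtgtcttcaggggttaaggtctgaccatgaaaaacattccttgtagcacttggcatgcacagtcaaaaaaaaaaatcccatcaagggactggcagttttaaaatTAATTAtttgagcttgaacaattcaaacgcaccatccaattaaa
Wt1 −57.1 kb, chr2:105069297-105069596: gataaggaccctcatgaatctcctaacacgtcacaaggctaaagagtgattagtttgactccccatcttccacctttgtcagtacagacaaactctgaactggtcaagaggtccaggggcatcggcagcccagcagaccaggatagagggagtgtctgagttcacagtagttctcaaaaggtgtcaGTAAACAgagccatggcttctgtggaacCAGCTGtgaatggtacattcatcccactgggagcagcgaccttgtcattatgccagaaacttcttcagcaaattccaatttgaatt
Tcf21 −48.6 kb, chr10:22868603-22868902: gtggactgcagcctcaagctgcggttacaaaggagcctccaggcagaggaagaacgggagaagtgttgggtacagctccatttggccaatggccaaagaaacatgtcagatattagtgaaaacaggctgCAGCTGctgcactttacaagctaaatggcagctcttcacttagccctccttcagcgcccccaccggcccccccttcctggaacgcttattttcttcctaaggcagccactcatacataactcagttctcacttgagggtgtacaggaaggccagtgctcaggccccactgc
Lmx1b +34.7 kb, chr2:33605689-33605988: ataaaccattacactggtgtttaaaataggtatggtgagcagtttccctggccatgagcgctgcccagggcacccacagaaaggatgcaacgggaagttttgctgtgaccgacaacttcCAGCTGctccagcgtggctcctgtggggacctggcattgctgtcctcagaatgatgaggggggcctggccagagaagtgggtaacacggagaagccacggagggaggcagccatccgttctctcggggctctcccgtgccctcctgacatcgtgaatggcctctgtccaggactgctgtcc
Foxc1 +12.2 kb, chr13:31818720-31819019: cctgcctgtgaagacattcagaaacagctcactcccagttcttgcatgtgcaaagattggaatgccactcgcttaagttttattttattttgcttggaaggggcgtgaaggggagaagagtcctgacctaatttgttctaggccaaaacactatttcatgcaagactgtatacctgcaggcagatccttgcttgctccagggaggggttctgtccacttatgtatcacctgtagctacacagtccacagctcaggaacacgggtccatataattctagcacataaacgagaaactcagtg
Foxl1 −2.6 kb, chr8:121125201-121125500: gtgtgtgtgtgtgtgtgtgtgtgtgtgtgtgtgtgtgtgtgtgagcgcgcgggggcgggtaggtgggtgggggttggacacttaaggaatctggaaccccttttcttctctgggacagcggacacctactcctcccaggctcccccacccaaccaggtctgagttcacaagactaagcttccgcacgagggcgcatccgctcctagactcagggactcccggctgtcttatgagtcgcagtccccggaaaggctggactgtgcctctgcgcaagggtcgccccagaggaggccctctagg

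The capitals of the Wt1 −63.2 kb window are the homeodomain core TAATTA at base 257, and those of the Wt1 −57.1 kb window are a forkhead word (TGTTTAC, here on the minus strand) at base 187 and the E-box CAGCTG at base 215. An E-box stood at base 130 of the Tcf21 −48.6 kb window and at base 120 of the Lmx1b +34.7 kb window. The Foxc1 +12.2 kb and Foxl1 −2.6 kb windows held none of the 5 searched words. A match is a run of letters and not evidence of binding.

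An entry of the deposited matrix records whether any fragment of a nucleus fell in a peak, and a share is the percentage of nuclei of a cluster with the peak open. The 5 samples held 16980853 to 43794155 open calls, where a call is 1 open peak in 1 nucleus. Podocytes numbered 307, 362, 47, 157 and 39 nuclei in P0 replicates 1 and 2, the P21 sample and P56 replicates 1 and 2, and had a median of 3387, 4506.5, 3546, 2613 and 5017 open peaks per nucleus. P56 replicate 1 thus had the shallowest podocytes, and shares rise with depth, so orders of cell types are also given after each nucleus was thinned to 1000 open peaks. Nuclei with fewer than 1000 open peaks were left out of the thinned values. This kept 41 of 47 podocytes and 71 of 90 stroma 1 nuclei of the P21 sample. Of the barcode sequences, 477 occurred in more than 1 sample, 1 of them in podocytes of more than 1 sample. The podocyte marker Nphs1, a slit diaphragm gene, had 133 ± 1.08 CPM (open calls in its gene window per 1000000 open calls) in podocytes at P0 and 141 ± 33.1 in adult, against 35.8 ± 2.15 and 5.28 ± 0.893 in nephron progenitors and 6.40 ± 3.74 and 6.94 ± 2.66 in endothelial cells. Podxl, the gene of a podocyte surface sialomucin, had 211 ± 24.9 and 257 ± 21.4 CPM in podocytes, against 30.4 ± 2.23 and 20.5 ± 7.12 in nephron progenitors and 148 ± 8.96 and 207 ± 13.7 in endothelial cells. Nphs1 thus set podocytes apart at both stages, and Podxl was high in endothelial cells too.

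The name nephron progenitors did not hold in the adult samples. Their 5 markers (Six2, Cited1, Eya1, Uncx, Meox1) summed to 247 and 251 CPM at P0, but to 30.3, 70.1 and 59.7 in the P21 sample and the P56 samples. Six2, which keeps the progenitor pool self-renewing, had 56.8 and 56.6 at P0 and a single open call over the 3 adult samples. The loop of Henle markers Slc12a1 and Umod moved the other way in these nuclei, from 33.9 and 26.9 to 99.4, 94.4 and 94.9. That rise was not particular to them, since these markers rose without overlap in every other cluster except podocytes. The adult level was near that of DCT (86.3, 92.5 and 99.6) and below that of loop of Henle (510, 440 and 527). The adult samples held 52, 90 and 53 nuclei with this name against 1032 and 1005 at P0, and they are called adult nuclei named nephron progenitors below.

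Over both stages, peaks most open in podocytes came mainly from Wt1 and Lmx1b. With shares averaged over the 5 samples, 58 of the 242 members (24.0%) were highest in podocytes, against 5.02% of all peaks. The other clusters that led most members were stroma 2 with 52 (21.5%, against 14.4% of all peaks) and nephron progenitors with 50 (20.7%, against 10.6%). Window peaks were podocyte-led in 26 of 43 cases, in 11 at P0, where nephron progenitors led 14, and in 33 in adult. At P0 the count for members was 37 (15.3%, against 2.98% of all peaks), fewer than the 53 led by nephron progenitors and the 47 led by stroma 2, and in adult 84 (34.7%, against 8.80%). After thinning it was 64 at P0 (26.4%, against 6.46%), 90 in adult (37.2%, against 8.92%) and 79 over the 5 samples (32.6%, against 7.83%), so the stages lay closer together. Over the 5 samples Wt1 gave 21 of its 54 peaks (38.9%), Lmx1b 20 of 52 (38.5%), Foxl1 10 of 54 (18.5%) and Foxc2 7 of 52 (13.5%). Tcf21 gave 5 of 40 (12.5%), and stroma 2 led 19 of its 40 peaks (47.5%). Foxc1 gave 2 of 40 (5.00%), and 6 of 40 (15.0%) after thinning, when Wt1 gave 25 and Lmx1b 27. At P0 alone Wt1 gave 17, Foxl1 9 and Lmx1b 8, and nephron progenitors led 20 of the Lmx1b peaks. These are descriptions without a test, since the genes were chosen as podocyte factors and the clusters were made from the same nuclei.

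**Figure D1:**
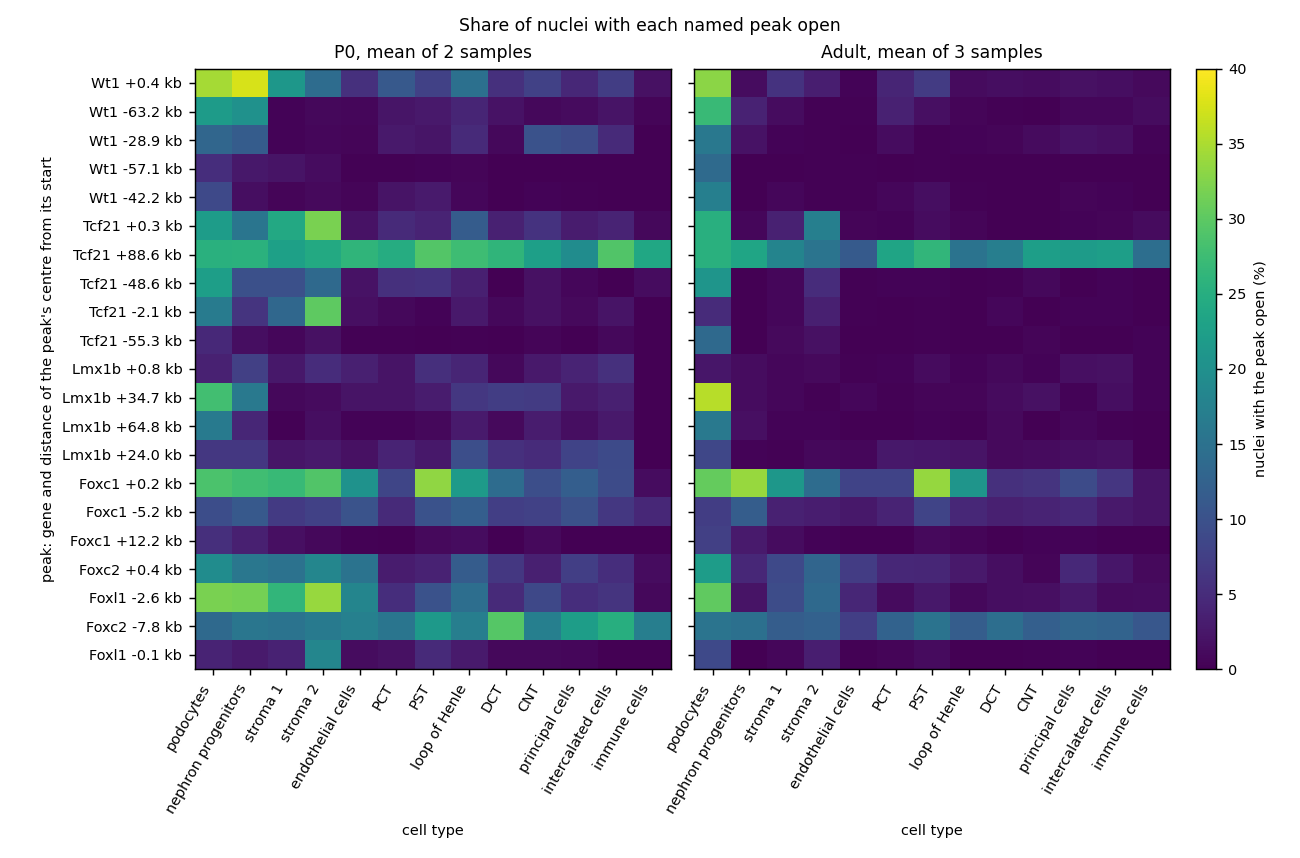
Heat map of the share of nuclei with the peak open (%, colour from 0 to 40) for the 21 named peaks (rows) in the 13 cell types (columns), with the mean of the 2 P0 samples on the left and of the 3 adult samples on the right. Brighter cells are more open. The Wt1 +0.4 kb and Lmx1b +34.7 kb peaks are bright in podocytes and nephron progenitors at P0 and in podocytes alone in adult, while the peaks over the starts of other genes (Tcf21 +88.6 kb, Foxc2 −7.8 kb) are open in many cell types.

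Wt1 (ENSMUSG00000016458.14, chr2:105126529-105173616, plus strand) had 10 window peaks. The peak over its start (chr2:105126283-105127641, centre +0.4 kb) covers the transcript start, coding sequence and UTR of Wt1 and also the start of the antisense gene Wt1os, and open chromatin carries no strand that would tell them apart. It was open in 27.7% and 41.4% of podocytes at P0 (replicates 1 and 2), in 36.2% at P21 and in 19.1% and 43.6% at P56 (replicates 1 and 2). The stages overlapped fully, at 34.6% ± 9.72 (SD, n = 2) for P0 and 33.0% ± 12.6 (SD, n = 3) for adult. The low sample was the shallow P56 replicate 1, whose exact 95% binomial interval ran from 13.3% to 26.1%, and the interval of P56 replicate 2, with 39 podocytes, ran from 27.8% to 60.4%. Such intervals cover counting error only.

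At P0 the Wt1 start was open in 37.5% ± 2.93 of nephron progenitors and 34.6% of podocytes, a gap within the spread between samples, taken here as the larger of the SDs of both clusters. Stroma 1 followed with 21.1% ± 2.40 and loop of Henle with 14.8% ± 1.37, both below by more than that spread. In adult, podocytes stood alone at 33.0%, with PST next at 7.02% ± 3.65. After thinning, podocytes led at both stages, with 8.14% ± 1.47 against 5.77% ± 0.438 in nephron progenitors at P0 and 8.75% ± 1.37 against 1.64% ± 0.793 in stroma 1 in adult.

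Upstream of Wt1 the −63.2 kb peak (chr2:105062728-105063930), whose centre is printed above, was open in 19.2% and 24.6% of podocytes at P0, with 31.9% at P21 and 13.4% and 35.9% at P56. It was shared with nephron progenitors at P0 (20.3% ± 0.384 against 21.9% ± 3.80 in podocytes, within the spread), and loop of Henle came next at 4.13%. In adult, nuclei named nephron progenitors had 3.86% ± 3.39 and podocytes 27.1% ± 12.0. The −28.9 kb peak (chr2:105097148-105098013, in an intron of Wt1os) gave 13.2% ± 1.64 of podocytes at P0, where nephron progenitors (11.7%), CNT (10.1%) and principal cells (9.30%) followed each other within the spread, and 16.0% ± 6.70 in adult, where the next cluster had 1.93%.

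A pair of weaker Wt1 peaks was led by podocytes at both stages. The −57.1 kb peak (chr2:105069064-105069829) was open in 5.25% ± 0.400 of podocytes at P0 against 2.55% ± 0.508 of nephron progenitors, and in adult in 13.9% ± 7.12 of podocytes against 0.275% ± 0.160 of endothelial cells, the next highest. The −42.2 kb peak (chr2:105084046-105084552, in an intron of Wt1os) was open in 8.84% ± 0.394 of podocytes at P0 and 17.3% ± 5.00 in adult, with PST next at 2.83% and 1.45%. At both peaks and both stages podocytes lay above the next cluster by more than the spread, also after thinning.

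Lmx1b (ENSMUSG00000038765.13, chr2:33560965-33640511, minus strand) had 23 window peaks, the most of the 6 genes, and no peak lay over its annotated start. The nearest, at +0.8 kb over a coding exon (chr2:33639289-33640079), was open in 2.97% ± 1.73 (SD, n = 5) of podocytes. The intronic +34.7 kb peak (chr2:33605249-33606428) was instead open in 24.1% and 31.8% of podocytes at P0, with 42.6% at P21 and 28.7% and 35.9% at P56. At P0 nephron progenitors followed with 16.1% ± 1.76 against 27.9% ± 5.42 in podocytes. In adult, CNT was next with 1.81% ± 1.58 against 35.7% ± 6.95. Podocytes exceeded the next cluster beyond the spread at both stages, and so they did after thinning (5.99% against 2.20% at P0, 9.29% against 0.343% in adult).

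Other introns of Lmx1b differed in this respect. The +64.8 kb peak (chr2:33575380-33575995) was open in 15.3%, 17.7%, 8.51%, 8.92% and 30.8% of podocytes in P0 replicates 1 and 2, P21 and P56 replicates 1 and 2, and in 4.37% ± 0.290 of nephron progenitors at P0. The +24.0 kb peak (chr2:33616017-33617094) was open in 6.84% and 6.08% of podocytes at P0, with loop of Henle first at 9.61% ± 2.24 and the leading clusters following each other within the spread. In the adult samples podocytes led at it beyond the spread, with 8.59% ± 1.63 against 2.64% ± 0.570 in PCT.

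Tcf21 (ENSMUSG00000045680.8, chr10:22817281-22820174, minus strand) was open in podocytes and in stroma. The peak over its start (+0.3 kb, chr10:22819297-22820548) was open in 20.5% and 23.8% of podocytes at P0, with 27.7% at P21 and 14.6% and 33.3% at P56. At P0 stroma 2 (31.9% ± 2.04) was above stroma 1 (24.2% ± 1.46) by more than the spread, and stroma 1 and podocytes (22.1% ± 2.29) did not differ beyond it. In adult, podocytes (25.2% ± 9.58) and stroma 2 (17.3% ± 2.15) did not differ beyond the spread, and stroma 1 had 3.66% ± 2.00. Thinned nuclei put podocytes first at P0 (5.13% ± 0.724 against 4.34% in stroma 2), so the P0 order at this peak depends on depth.

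The −48.6 kb peak of Tcf21 (chr10:22868335-22869170) was open mainly in podocytes, in 21.5% and 23.2% at P0, with 17.0% at P21 and 14.6% and 30.8% at P56. Stroma 2 was next at both stages, with 13.7% ± 1.01 at P0 and 5.05% ± 1.96 in adult, beyond the spread as deposited and after thinning. The −2.1 kb peak (chr10:22821569-22822961), which overlaps an exon of the non-coding gene Gm10824, was led by stroma 2 at P0, with 30.1% ± 0.941 against 16.7% ± 1.73 in podocytes, and it fell to 3.47% ± 0.732 and 4.89% ± 2.04 in adult. After thinning, the P0 gap between stroma 2 (4.05%) and podocytes (3.46%) was within the spread. The +88.6 kb peak (chr10:22730865-22732253) is the start of another gene, Tbpl1, and was open in 14.6% to 35.9% of podocytes and to a like extent in PST and intercalated cells.

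Foxc1 (ENSMUSG00000050295.4, chr13:31806633-31812476, plus strand) had the start with the broadest opening. The peak over it (+0.2 kb, chr13:31806109-31807525) was open in 26.7% and 30.7% of podocytes at P0, with 42.6% at P21 and 15.9% and 33.3% at P56. At P0 PST (33.4% ± 5.58), stroma 2 (29.1% ± 2.64), podocytes (28.7% ± 2.80) and nephron progenitors (27.7% ± 7.60) followed each other within the spread, and in adult nuclei named nephron progenitors (33.9%), PST (33.7%) and podocytes (30.6%) did. After thinning, podocytes led at P0 by more than the spread (6.30% ± 0.247 against 4.55% in stroma 1) but not in adult (7.51% ± 3.56 against 6.48%). The −5.2 kb peak (chr13:31801067-31801722) was likewise broad, with 3.82% to 12.8% of podocytes.

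A weak distal peak of Foxc1 had podocytes first at both stages. The +12.2 kb peak (chr13:31818703-31819035), printed above, was open in 4.56% and 6.35% of podocytes at P0, with 10.6% at P21 and 4.46% and 7.69% at P56. Nephron progenitors followed at 3.48% ± 0.143 at P0 and adult nuclei named nephron progenitors at 2.91% ± 1.56. Both were below podocytes by more than the spread, also after thinning. The adult shares rest on 5, 7 and 3 open podocytes, and the peak was named for its podocyte share among the Foxc1 peaks.

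Foxc2 (ENSMUSG00000046714.7, chr8:121116171-121118895, plus strand) and Foxl1 (ENSMUSG00000097084.1, chr8:121127940-121130644, plus strand) lie side by side. Foxc2 had 1 window peak, over its start (+0.4 kb, chr8:121116078-121117137), open in 17.3% and 21.5% of podocytes at P0, with 23.4% at P21 and 12.1% and 30.8% at P56. Stroma 2 was next with 18.3% ± 2.54 at P0 and 13% ± 3.13 in adult, within the spread at both stages. After thinning podocytes exceeded the next cluster beyond it (4.22% against 2.48% at P0, 4.70% against 3.42% in adult). The Foxc2 −7.8 kb peak (chr8:121107918-121108749) is the start of another gene, Mthfsd, and was led by DCT at P0.

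The peak between both genes, Foxl1 −2.6 kb (chr8:121124668-121126033), was the most open of the named peaks of this locus in podocytes. It was open in 27.0% and 37.0% of them at P0, with 36.2% at P21 and 15.9% and 38.5% at P56. At P0 stroma 2 (33.8% ± 2.91), podocytes (32.0% ± 7.06) and nephron progenitors (31.7% ± 6.08) did not differ beyond the spread. In adult, podocytes kept 30.2% ± 12.4, while stroma 2 had 13.6% ± 1.48 and stroma 1 9.24% ± 3.29. The peak over the Foxl1 start (−0.1 kb, chr8:121127478-121128191) was led by stroma 2 at P0, with 18.3% ± 1.84 against 4.03% ± 0.166 in podocytes, and by podocytes in adult, with 8.88% ± 5.05 against 3.29% ± 0.337. After thinning, the P0 lead of stroma 2 held (2.36% against 0.753%), and the adult lead of podocytes was within the spread.

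**Figure D2:**
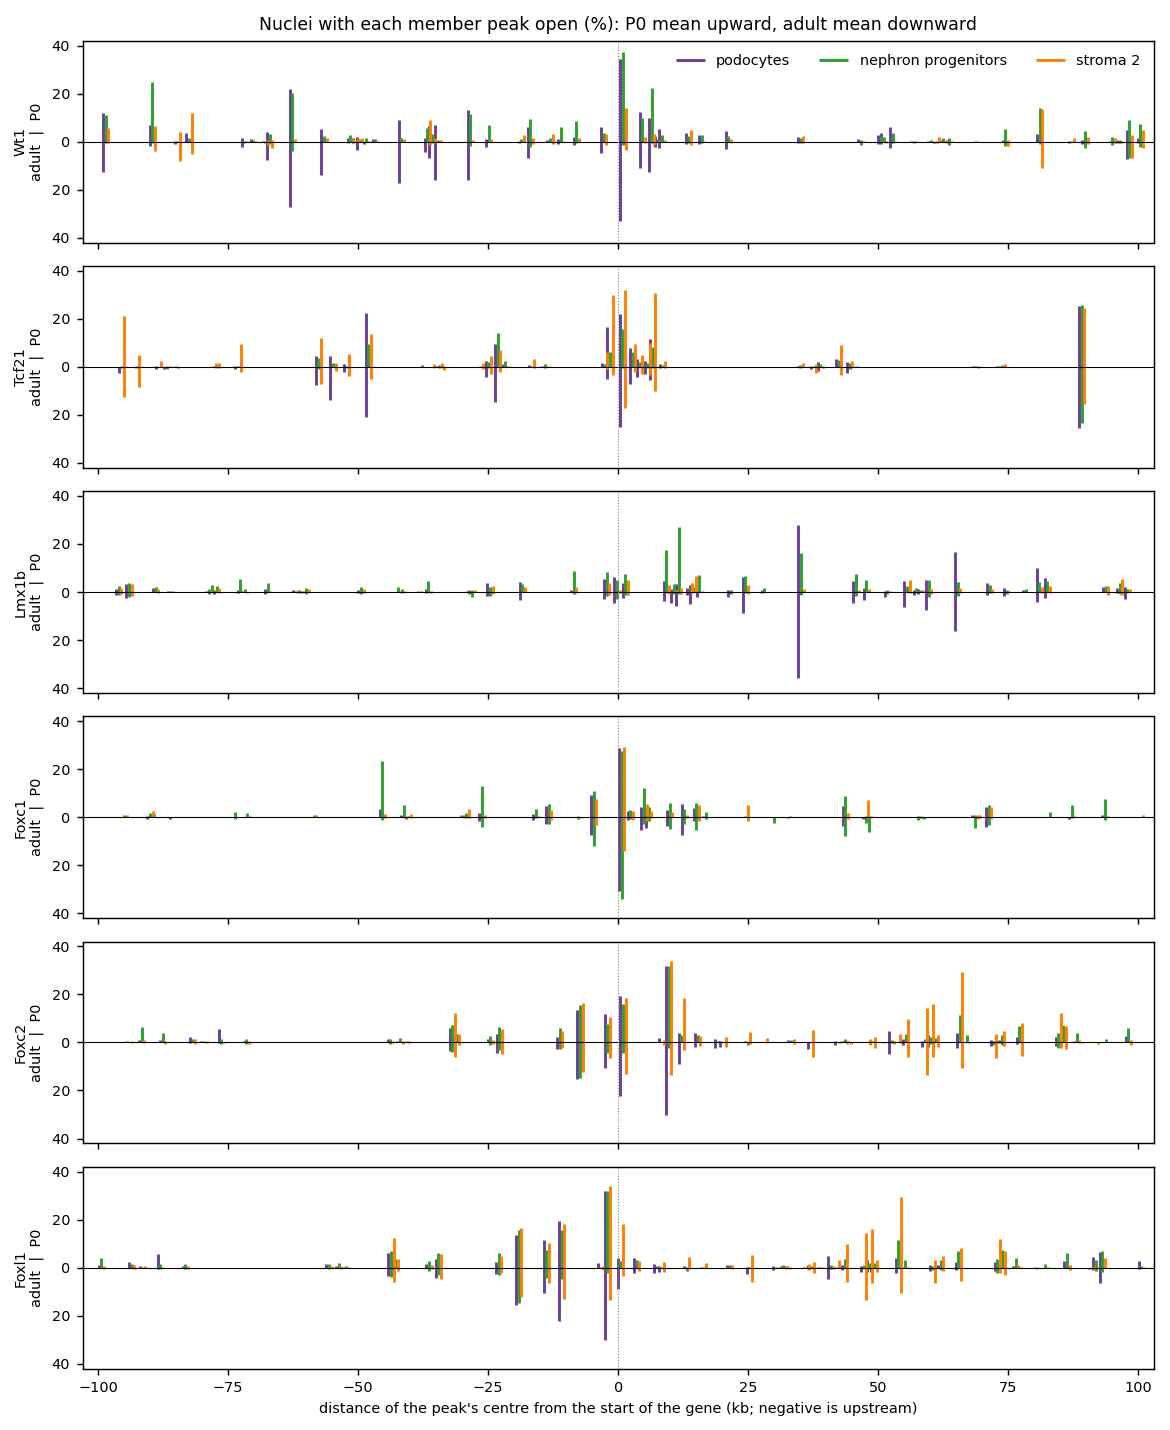
Share of nuclei with a peak open (%, P0 upward and adult downward) at each member peak against its distance in kb from the start of the gene, 1 panel for each of the 6 genes, with bars for podocytes (purple), nephron progenitors (green) and stroma 2 (orange) set side by side. Nephron progenitor bars stand beside the podocyte bars of Wt1 and Lmx1b at P0 and are short in adult, and the Foxc1 start keeps tall bars at both stages. The adult nuclei named nephron progenitors lack the progenitor markers at their P0 level.

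When the window peaks of a gene were joined, the share of nuclei with any of them open did not always give the order of the single peaks. For Lmx1b, nephron progenitors (64.2% ± 4.88) were above podocytes (57.2% ± 5.39) at P0 by more than the spread, with loop of Henle at 38.3%, whereas podocytes led at the +34.7 kb peak. In adult podocytes had 64.8% ± 7.62 and the next cluster 13.4% ± 8.05. For Wt1 the P0 values were 55.9% ± 3.89 and 53.1% ± 7.78, within the spread, and in adult podocytes had 48.0% ± 7.42 and PST 14.9% ± 13.2. For Tcf21 stroma 2 led at P0 (52.7% ± 2.39, with 34.7% in podocytes and 34.0% in stroma 1) and podocytes in adult (31.0% ± 8.67, with 20.9% ± 1.65 in stroma 2). For Foxl1, stroma 2 was also first at P0, here by more than the spread (44.3% ± 3.95 against 34.7% ± 7.17), and podocytes first in adult (35.1% ± 13.8 against 16.6% ± 1.34). The Foxl1 window holds 2 peaks, the start and the −2.6 kb peak, which enters only by its end (window from 121125940, peak to 121126033). In podocytes at P0 the −2.6 kb peak was open in 83 and 134 nuclei and the start in 12 and 15. Podocyte values of the Foxl1 window thus mainly follow the −2.6 kb peak, which Foxc2 has in reach too. For Foxc1, PST led by less than the spread at both stages, with 40.6% each time. These orders are of nuclei at their own depth, and the P0 orders changed when each nucleus was thinned to 1000 open peaks, a setting added after the values were seen. Podocytes then led at P0 by more than the spread for Lmx1b (19.8% ± 0.856 against 16.7% ± 0.587 in nephron progenitors), Wt1 (16.9% ± 1.75 against 11.8% ± 0.826), Foxl1 (8.04% ± 0.943 against 7.03% ± 0.658 in stroma 2), Foxc1 (8.14% ± 0.423 against 6.48% ± 0.762 in nephron progenitors) and Foxc2 (4.22% ± 0.375 against 2.48% ± 0.479 in stroma 1). For Tcf21, podocytes (9.52% ± 0.851) and stroma 2 (9.35% ± 0.403) did not differ beyond the spread at P0. In adult, thinned podocytes led for all 6 genes, within the spread for Tcf21 and Foxc1. A gene with more window peaks has more chances of an open call, so these shares compare cell types and not genes.

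The stage comparison asked whether the chromatin of these genes in podocytes differed between birth and adulthood. Open calls were summed per sample and cluster and compared with the quasi-likelihood test of edgeR, with Benjamini-Hochberg (BH) adjustment over all peaks or gene windows tested in that cluster. Log2 fold changes are P0 minus adult and are followed by a standard error calculated back from the F statistic of the test. It thus adds nothing to the p-value. In podocytes 24 of the 242 members passed the filter on low sums, 9 of Wt1, 7 of Tcf21, 2 of Lmx1b, 2 of Foxc1 and 4 in reach of both Foxc2 and Foxl1. A member that is open in few podocytes of 1 stage could pass through the other stage only, so the passing members do not stand for all.

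In podocytes 4 of these 24 peaks passed BH at 0.05, 1 higher at P0 and 3 higher in adult. Over all 13523 peaks tested, 3.52% were called higher at P0 and 6.07% higher in adult. The median log2 fold change was −0.05 over the 24 members and 0.0026 over all peaks. The 4 peaks lay at Wt1 and Tcf21, and at none of the other genes did a tested peak pass. Each of the 4 met the low-sum filter only through the stage where it was higher, so these calls are given as a description.

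At the Wt1 −57.1 kb peak, 5.54% and 4.97% of podocytes were open at P0, with 14.9% at P21 and 6.37% and 20.5% at P56, a log2 fold change of −1.28 ± 0.42 (adjusted p = 0.042). At the Wt1 −42.2 kb peak the values were 9.12% and 8.56% at P0, with 14.9% at P21 and 14.0% and 23.1% at P56, a log2 fold change of −1.13 ± 0.32 (adjusted p = 0.015). All adult samples were above both P0 samples at each of these peaks. The Tcf21 −55.3 kb peak (chr10:22875356-22875678, intergenic) was open in 3.58% and 5.52% at P0, with 21.3% at P21 and 7.01% and 12.8% at P56, a log2 fold change of −1.51 ± 0.43 (adjusted p = 0.016), again without overlap. The Tcf21 −2.1 kb peak was the one that fell, from 17.9% and 15.5% at P0 to 6.38% at P21 and 5.73% and 2.56% at P56, a log2 fold change of 1.32 ± 0.39 (adjusted p = 0.023).

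The calls changed between fits. DESeq2 kept 1 of the 4, the Tcf21 −55.3 kb peak (adjusted p = 0.048), and gave adjusted p = 0.124 for Wt1 −57.1 kb, 0.118 for Wt1 −42.2 kb and 0.142 for Tcf21 −2.1 kb. Without P0 replicate 1 none of the 4 passed (adjusted p from 0.095 to 0.396), without P0 replicate 2 only Tcf21 −2.1 kb did (0.0094), and without the P21 sample only Wt1 −42.2 kb did (0.043). Without P56 replicate 1 the Wt1 −42.2 kb call was lost (0.211), and without P56 replicate 2 those of Wt1 −57.1 kb (0.123) and Tcf21 −2.1 kb (0.155). The direction was the same in each of these fits. With a P0 sample left out, here and in the other clusters, P0 is a single sample that is taken to vary like the adult samples.

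At the starts of the genes, the podocyte test gave log2 fold changes of 0.10 ± 0.18 for Wt1 (adjusted p = 0.844), −0.17 ± 0.23 for Tcf21 (0.769), −0.04 ± 0.21 for Foxc1 (0.955) and −0.13 ± 0.25 for Foxc2 (0.847), and 0.16 ± 0.20 for the Foxl1 −2.6 kb peak (0.753). The Lmx1b +34.7 kb peak had −0.51 ± 0.19 (adjusted p = 0.080). None of these passed the adjustment.

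**Figure D3:**
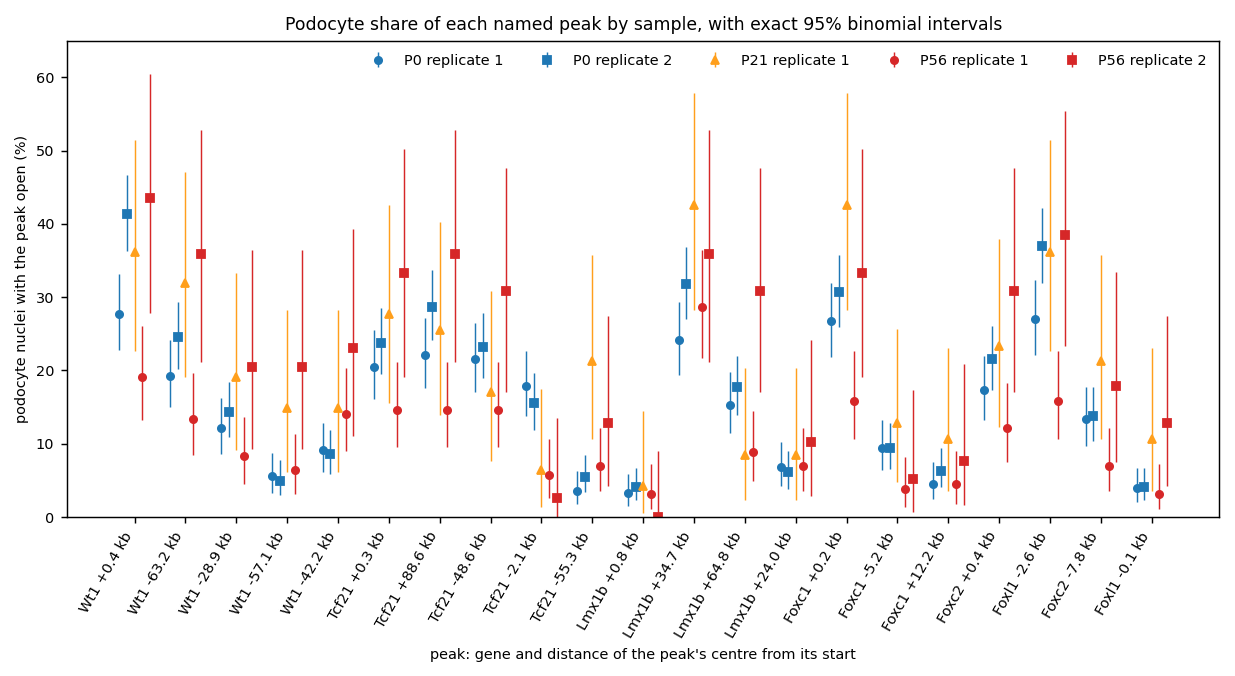
Share of podocytes with the peak open (%) in each of the 5 samples for the 21 named peaks, with exact 95% binomial intervals as bars. The P0 and adult points overlap at the start peaks of Wt1, Tcf21, Foxc1 and Foxc2. They are separate at Wt1 −57.1 kb, Wt1 −42.2 kb, Tcf21 −55.3 kb and Tcf21 −2.1 kb, and also at Lmx1b +24.0 kb, which was not called. At Wt1 −57.1 kb and Tcf21 −55.3 kb the interval of P56 replicate 1 covers both P0 points.

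For whole gene windows, open calls over all window peaks were scaled to CPM. In podocytes the Lmx1b window had 209 and 229 CPM at P0, with 296 at P21 and 289 and 252 at P56, so both P0 samples were below all adult samples. Its log2 fold change of −0.37 ± 0.14 did not pass (adjusted p = 0.078), and it passed without P56 replicate 2 (−0.46, adjusted p = 0.049). The Wt1 window had 157 and 179 CPM at P0, with 202 at P21 and 162 and 111 at P56 (log2 fold change 0.08 ± 0.16, adjusted p = 0.844). The Tcf21 window had 108 and 94.3, then 114, then 77.9 and 66.0 CPM (0.25 ± 0.19, adjusted p = 0.488). For Foxc1 (90.0 and 77.9, then 135, then 77.9 and 74.2 CPM), Foxc2 (41.1 and 42.5, then 57.1, then 40.0 and 49.5) and Foxl1 (73.7 and 81.2, then 114, then 63.2 and 82.5) the stages overlapped, and adjusted p was 0.772, 0.765 and 0.922.

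Thus 0 of the 6 windows were called in podocytes by edgeR and by DESeq2, and 1, Lmx1b, had an unadjusted p under 0.05, where 5.06% of all 16081 windows were called higher at P0 and 5.76% higher in adult. Proximal tubule markers moved with stage in the same sums: their 5 genes (Slc34a1, Lrp2, Slc5a2, Akr1c21, Kap) summed to 76.0 and 64.3 CPM in podocytes at P0 and to 208, 118 and 227 in adult, and Lrp2 (−1.06, adjusted p = 0.0049) and Slc34a1 (−1.43, adjusted p = 0.0027) passed. The 6 genes listed for parietal epithelium and mesangium (Cldn1, Pax8, Pax2, Gata3, Itga8, Ren1) summed to 309 to 330 CPM in podocytes at P0 and 235 to 353 in adult. At P0 this sum was lower only in endothelial and immune cells and reached 538 to 564 CPM in principal cells, so it does not set those cell types apart here. Of these genes Itga8 was higher at P0 in podocytes (1.43, adjusted p = 0.0016). The 5 nephron progenitor markers summed to 136 and 134 CPM in podocytes at P0 and to 83.0, 59.0 and 49.5 in adult, without overlap. The part of any of these in the podocyte results was not tested.

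**Figure D4:**
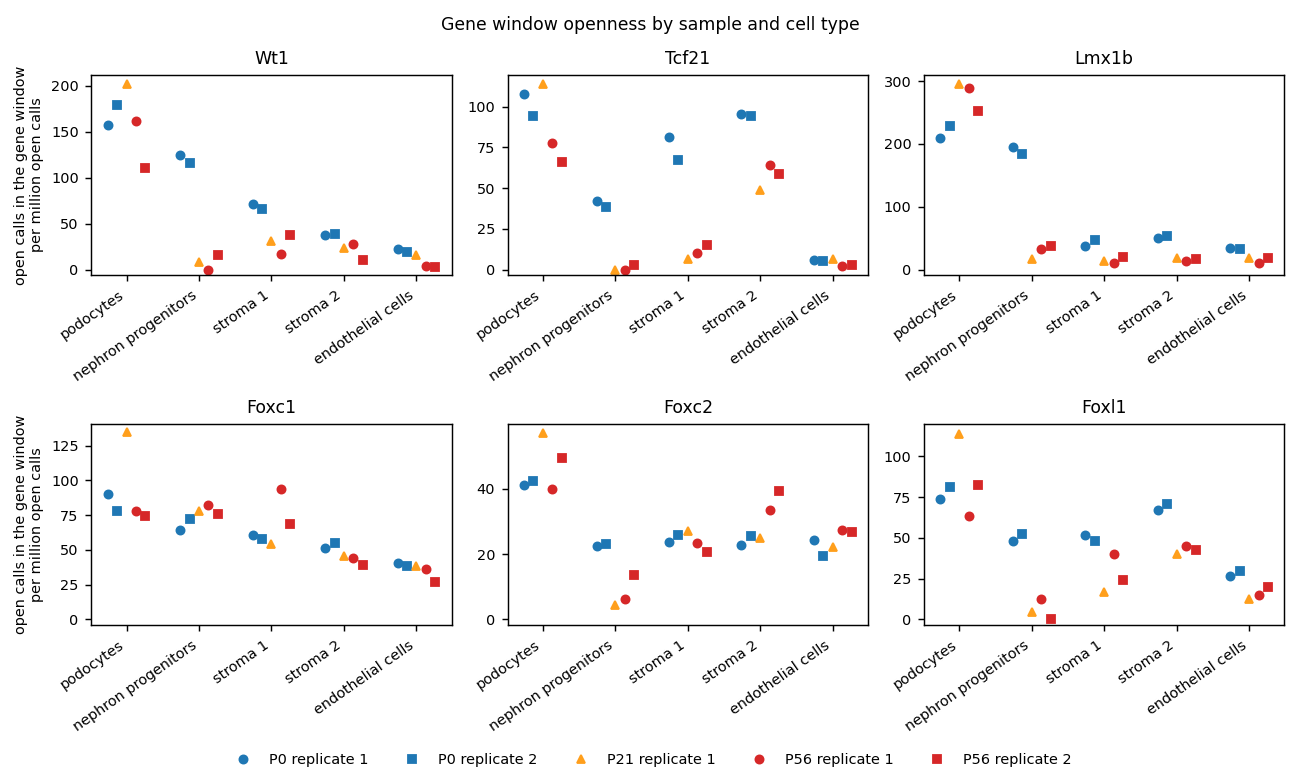
Open calls in the gene window per 1000000 open calls (CPM) in each sample for the 6 genes in podocytes, nephron progenitors, stroma 1, stroma 2 and endothelial cells, with P0 and adult samples marked apart. The podocyte points of the stages overlap except for Lmx1b, and the nephron progenitor points of Wt1, Lmx1b, Tcf21 and Foxl1 fall from P0 to adult while those of Foxc1 do not. The adult nuclei of that name lack the progenitor markers at their P0 level.

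Nuclei named nephron progenitors differed between stages at several windows, with the limit that the adult nuclei of this name lack the progenitor markers at their P0 level. The Wt1 window had 125 and 116 CPM at P0 and 8.65, 0 and 16.3 in adult, a ratio of 14.0 with an exact 95% interval of 7.07 to 32.4 (1691 open calls at P0 against 8). The Lmx1b window had 195 and 184 CPM at P0 and 17.3, 33.5 and 38.0 in adult, a ratio of 6.04 (4.19 to 9.03). For Foxl1 the ratio was 9.31 (3.97 to 28.8), for Foxc2 2.65 (1.33 to 6.19), and for Tcf21, with 566 open calls at P0 and 1 in adult, 37.4 (6.68 to 1479). The Foxc1 window had 64.3 and 72.4 CPM at P0 and 77.8, 82.3 and 76.0 in adult, a ratio of 0.874 (0.688 to 1.12). These intervals pool open calls over samples, several of which can come from 1 nucleus, and cover counting error only.

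In the edgeR test of this cluster the windows of Wt1 (log2 fold change 3.95 ± 0.34, adjusted p = 4.9e-15), Lmx1b (2.75 ± 0.24, 5.0e-15), Foxl1 (3.35 ± 0.44, 3.9e-09) and Tcf21 (adjusted p = 7.8e-10) were called higher at P0. Foxc1 was not called (−0.05 ± 0.19, adjusted p = 0.859), and Foxc2 did not pass the filter. So 4 of 5 windows tested were called, all higher at P0, where 21% of all windows were called higher at P0 and 18.5% higher in adult. The P0 sums of this cluster held 6408014 and 7649123 open calls and the adult sums 231286 to 368632, so a member could pass the filter through P0 alone, and the counts are given as a description. Of the member peaks 6 of 8 tested were called, all higher at P0, against 20.4% of all peaks, while 19.2% of all peaks were higher in adult. The uncalled peaks were the Foxc1 start and the Tcf21 +88.6 kb peak at the start of Tbpl1. The low-sum filter follows the depth of the adult samples, so more peaks were tested when one of them was left out. Without the P21 sample 68 of 112 member peaks were called (65 higher at P0, beside 26.4% of all peaks), without P56 replicate 1 60 of 109 (58, beside 26.3%) and without P56 replicate 2 47 of 111 (47, beside 19.2%). In these fits 12.4%, 9.48% and 9.38% of all peaks were called higher in adult. All peaks leaned to P0 in them, with a median log2 fold change of 0.652, 0.956 and 0.795, against 0.0379 with all samples. After thinning only the Wt1 and Lmx1b windows passed the filter, and both were called (adjusted p = 3.5e-09 and 2.1e-10 by edgeR).

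In stroma 1 and stroma 2 the Tcf21, Wt1, Lmx1b and Foxl1 windows were higher at P0, and the Foxc1 and Foxc2 windows were not called. In stroma 1 the Tcf21 window went from 81.3 and 67.1 CPM at P0 to 6.80, 10.1 and 14.9 in adult (log2 fold change 2.84 ± 0.32, adjusted p = 1.1e-06), and the Wt1 window from 71.1 and 66.2 to 30.6, 16.8 and 37.3 (1.34 ± 0.24, adjusted p = 1.9e-04). Lmx1b (1.54 ± 0.32, adjusted p = 7.2e-04) and Foxl1 (1.06 ± 0.26, adjusted p = 0.0037) were also higher at P0, and Foxc1 (−0.13) and Foxc2 (0.25) were not called. The 4 of 6 windows stand beside 16.5% of all windows called higher at P0 and 14.0% higher in adult. The P0 sums held 3823908 and 3219102 open calls and the adult sums 294254 to 536670, so here too a window or peak could pass the filter through P0 alone, and the counts are a description. Of 12 member peaks tested 8 were called, all higher at P0, with 20.8% and 17.0% of all peaks called in each direction. The Foxl1 call was lost without P0 replicate 1 (adjusted p = 0.077) and without P56 replicate 2 (0.122). Other markers moved in the same nuclei. The nephron progenitor markers summed to 108 and 104 CPM at P0 and to 47.6, 47.1 and 48.4 in adult, the same direction as these calls. The stroma markers summed to 361 and 370 CPM at P0 and to 160, 219 and 248 in adult, the proximal tubule markers to 51.3 and 68.3 and then 367, 97.5 and 255, and the endothelial markers to 219 and 210 and then 265, 370 and 306. Their part in these calls was not tested. The peak count was 22 of 65 tested without the P21 sample (21 higher at P0, beside 20.1% of all peaks), 27 of 67 without P56 replicate 1 (24, beside 23.9%) and 22 of 63 without P56 replicate 2 (20, beside 17.4%). In these fits 12.2%, 16.3% and 8.49% of all peaks were called higher in adult, and the median log2 fold change over all peaks was 0.224, 0.284 and 0.316. After thinning no member window or peak of stroma 1 passed the filter, so these calls could not be checked at equal depth.

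In stroma 2 the Tcf21 window had 95.5 and 94.1 CPM at P0 and 48.9, 64.4 and 58.7 in adult (log2 fold change 0.74 ± 0.14, adjusted p = 0.0013), and the Foxl1 window 67.3 and 70.5 at P0 and 39.8, 44.7 and 42.8 in adult (0.73 ± 0.14, 0.0015). The Lmx1b window (1.73 ± 0.18, adjusted p = 2.1e-05) and the Wt1 window (0.91 ± 0.23, 0.0074) were called too, Foxc1 (0.36 ± 0.15, 0.081) and Foxc2 (−0.43 ± 0.18, 0.070) not. In the same sums the nephron progenitor markers went from 82.6 and 77.2 CPM at P0 to 55.8, 45.8 and 33.1 in adult, and the loop of Henle markers from 15.5 and 15.9 to 51.2, 20.2 and 38.7, and their part in the calls was not tested. The 4 calls among 6 windows compare with 20.8% of all windows called higher at P0 and 16.6% higher in adult. The P0 sums held 9479984 and 9003908 open calls and the adult sums 878544 to 1879672. A window or peak could thus pass the filter through P0 alone, and the counts are a description. The Wt1 and Foxl1 calls did not pass without P0 replicate 1 (adjusted p = 0.061 and 0.050) or without P0 replicate 2 (0.052 and 0.061).

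Member peaks of stroma 2 moved in both directions. Of 57 tested, 17 were called higher at P0 and 11 higher in adult, with 26.5% and 23.7% of all peaks called in each direction, so the members were close to the background. Among those higher at P0 were the Tcf21 −2.1 kb peak (2.08 ± 0.24, adjusted p = 2.0e-07), the Foxl1 start (1.51 ± 0.26, 3.6e-05) and the Wt1 start (1.26 ± 0.29, 9.3e-04). The Foxc2 start was higher in adult (−0.47 ± 0.19, adjusted p = 0.046), a call lost with DESeq2 (0.252) and without P0 replicate 1 (0.554), P0 replicate 2 (0.340) or P56 replicate 2 (0.138). The Foxc2 start is the only peak of the Foxc2 window, which was not called in stroma 2. Both are the same open calls, tested once among peaks and once among windows. The count of called members was 46 of 112 without the P21 sample (28 higher at P0, beside 22.6% of all peaks) and 43 of 111 without P56 replicate 1 (28, beside 24.6%). In these fits 18.5% and 19.6% of all peaks were called higher in adult. Fewer members were called with a P0 sample left out, where P0 is a single sample.

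In endothelial cells 3 windows were higher at P0. The Wt1 window fell from 22.7 and 19.5 CPM at P0 to 15.9, 4.21 and 3.15 in adult (log2 fold change 1.80 ± 0.42, adjusted p = 0.0079), and the Lmx1b (1.20 ± 0.25, 0.0046) and Foxl1 windows (0.76 ± 0.24, 0.032) were called too. Foxc2 had 24.4 and 19.5 CPM at P0 and 22.2, 27.4 and 26.8 in adult (−0.27 ± 0.22, adjusted p = 0.385). These 3 of 6 windows compare with 13.9% of all windows called higher at P0 and 11.4% higher in adult, and the 7 of 27 peaks, all higher at P0, with 16.6% and 14.8% of all peaks. The P0 sums held 4266921 and 2765074 open calls and the adult sums 630232 to 1900786, so a window or peak could pass the filter through P0 alone. The Wt1 window did so, and the counts are a description. Without P0 replicate 1 none of the 3 windows passed, with adjusted p = 0.148 for Wt1, 0.109 for Lmx1b and 0.237 for Foxl1. The Foxl1 call was also lost without P0 replicate 2 (0.271), without the P21 sample (0.061) and without P56 replicate 1 (0.063). The endothelial markers summed to 1163 and 1126 CPM at P0 and 1618, 1722 and 1891 in adult in these nuclei, and the stroma markers to 89.3 and 94.8 and then 63.5, 56.3 and 55.9; their part in the calls was not tested. Of the member peaks 12 of 36 were called without the P21 sample, by the same test, beside 15.7% of all peaks higher at P0 and 13.1% higher in adult. Fewer were called with a P0 sample left out, where P0 is a single sample. After thinning the Lmx1b call was kept (adjusted p = 0.012), the Foxl1 call was lost (0.219) and the Wt1 window did not pass the filter.

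Whether podocytes differed from these clusters in their stage change was tested by the interaction of cell type and stage, with the sample as a block. Against nephron progenitors the interaction was called for 5 of the 6 windows, all with a smaller P0 minus adult difference in podocytes, where 7.15% of all windows were called in that direction and 5.55% in the other. It was −3.06 ± 0.26 for Lmx1b (adjusted p = 2.1e-20), −3.80 ± 0.38 for Wt1 (1.2e-15), −3.42 ± 0.48 for Foxl1 (6.4e-09) and −1.76 ± 0.53 for Foxc2 (0.012), with adjusted p = 9.7e-09 for Tcf21. It was not called for Foxc1 (−0.07 ± 0.25, adjusted p = 0.922). The Foxc2 call did not pass with DESeq2 (adjusted p = 0.085), without the P21 sample (0.117) or without P56 replicate 1 (0.126). Of 26 member peaks tested 15 were called, all smaller in podocytes, against 6.08% of all peaks in that direction and 3.19% in the other. Without P56 replicate 1, 9 were called, beside 0.654% and 0.608% of all peaks. As above, these interactions rest on adult nuclei that carry the progenitor name without its markers. A member could also pass the low-sum filter through 1 cluster and stage alone, so the counts are a description.

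Against stroma 2 the difference was called for 3 of the 6 windows, all smaller in podocytes, where 4.87% of all windows were called in that direction and 3.44% in the other. Lmx1b differed by −2.15 ± 0.19 (adjusted p = 1.8e-25), Wt1 by −0.82 ± 0.20 (0.0029) and Foxl1 by −0.83 ± 0.23 (0.0078). Most podocyte calls of the Foxl1 window come from the −2.6 kb peak, as given above. Tcf21 (−0.50 ± 0.21, adjusted p = 0.143), Foxc1 (−0.52 ± 0.22, 0.139) and Foxc2 (0.19 ± 0.29, 0.804) were not called. Of 97 member peaks 4 were called, 3 smaller and 1 larger in podocytes, with 0.939% and 1.52% of all peaks called in those directions. Among them was the Foxl1 start (adjusted p = 0.0090), which did not pass without P0 replicate 2 (0.081), the P21 sample (0.119) or P56 replicate 2 (0.139). DESeq2 kept the window call of Lmx1b only, with adjusted p = 0.148 for Wt1 and 0.207 for Foxl1. The Foxl1 window call was also lost without the P21 sample (0.175) and without P56 replicate 2 (0.053). The count of called member peaks was 1 without the P21 sample, beside 0.525% of all peaks smaller and 0.895% larger in podocytes. It was 2 without P56 replicate 1 (0.246% and 0.508%) and 0 without P56 replicate 2 (0.393% and 0.497%). Against stroma 2 too, a member could pass the filter through 1 cluster and stage alone. The interaction tests and the tests within clusters use the same podocyte sums.

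Other genes of the podocyte program were read from a list of 25, of which 24 could be tested in podocytes. There 8 windows were higher in adult and none at P0, beside 5.76% and 5.06% of all windows, with a median log2 fold change of −0.51 against −0.01 over all windows. They were the type IV collagen chains Col4a3 (195 ± 8.34 CPM at P0, n = 2, and 368 ± 28.1 in adult, n = 3, log2 fold change −0.94, adjusted p = 6.3e-05) and Col4a4 (−0.58, 0.021), the phospholipase gene Plce1 (−1.02, 9.0e-05), the actin crosslinker Actn4 (−0.90, 1.1e-04), Clic5 (−0.83, 3.3e-04), the matrix protein gene Npnt (−0.78, 0.0025), the scaffold gene Magi2 (−0.64, 0.0042) and Dach1 (−0.52, 0.012). Nphs1 was not called (−0.01, adjusted p = 0.984). In nuclei named nephron progenitors 10 of 22 tested windows of the list were higher at P0 and 4 in adult, beside 21% and 18.5% of all windows. In stroma 1 it was 5 and 5 of 22 (16.5% and 14.0% of all windows), in stroma 2 8 and 4 of 24 (20.8% and 16.6%), and in endothelial cells 4 and 7 of 24 (13.9% and 11.4%). The interaction against nephron progenitors was called smaller in podocytes for 13 of 24 windows and larger for 2, beside 7.15% and 5.55% of all windows. Against stroma 2 it was smaller for 14 of 25 and larger for 0, beside 4.87% and 3.44%.

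The neighbouring and stromal forkhead genes Foxf1, Foxf2, Foxq1, Foxd1, Foxd2, Foxp1 and Foxo1 were set beside the 3 forkhead members. In podocytes 4 of these 7 could be tested, and none was called by edgeR, with adjusted p from 0.097 for Foxo1, the one with an unadjusted p under 0.05, to 0.965 for Foxp1. Foxf1 and Foxf2, which like Foxc2 and Foxc1 lie in forkhead clusters, were low in podocytes, at 17.9 ± 5.54 CPM and 7.15 ± 0.861 CPM at P0. Foxd1, a factor of the stromal progenitors, had 77.4 ± 6.89 CPM in podocytes at P0, and 35.4 ± 3.12 in stroma 1. Of those tested, 3 of 5 were higher at P0 and 1 in adult in nuclei named nephron progenitors, 2 and 1 of 5 in stroma 1, 0 and 1 of 7 in stroma 2, and 2 and 0 of 6 in endothelial cells, beside the same shares of all windows as for the podocyte list. The interaction was smaller in podocytes for 3 of 5 against nephron progenitors (7.15% of all windows) and for 0 of 7 against stroma 2 (4.87%).

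Genes whose windows followed a member over the 65 sums of 5 samples and 13 clusters were named by Pearson's r of log2 CPM, as a description, since sums share libraries and depth. For Wt1 these were Shisa3 (r = 0.875), 1700025A08Rik (0.867), Anks1b (0.823), Adam23 (0.820) and Foxd1 (0.808). For Lmx1b they were Raver2 (0.890), Dctd (0.868), Fam189a1 (0.825), Rab3b (0.822) and Tmem54 (0.814). For Tcf21 they were 9130410C08Rik (0.853), Aff3 (0.848), Mmp23 (0.838), Gm15636 (0.838) and Kirrel (0.833), the last a slit diaphragm gene.

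For Foxc2 the nearest patterns were Sulf1 (r = 0.833), Atoh8 (0.824), Gm4804 (0.812), Spats2l (0.812) and Bvht (0.807), and for Foxl1 Gm26815 (0.842), Sulf1 (0.831), Colec12 (0.824), D030068K23Rik (0.823) and Gm28523 (0.810). For Foxc1 no gene exceeded CT010496.1 (0.776), ahead of Gm15050, Ccdc3 and Gm26776 (0.775 each) and Eml1 (0.771). Among the members, Tcf21 and Foxl1 were most alike (0.802), then Foxc2 and Foxl1 (0.755) and Wt1 and Tcf21 (0.746), and Lmx1b and Foxc1 least (0.391).

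The members were also compared in sequence, which the choice of peaks did not use. Their median GC content was 51.2% and their CpG ratio, observed over expected, 0.273, against 46.7% and 0.210 over 300693 peaks. In the central 300 bases the starts of Wt1 and Foxc2 had 74.7% and 71.7% GC with CpG ratios of 1.01 and 1.04, and the Foxc1 start had 57.0% and 0.988. The starts of Tcf21 (54.3%, 0.459) and Foxl1 (50.7%, 0.575) were poorer in CpG.

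Of 5 words searched on both strands of the central 300 bases, the homeodomain core TAATTA occurred in 25 of 242 members (10.3%, against 8.31% of all peaks), the E-box CAGCTG in 49 (20.2%, against 18.6%), the WT1-like word GTGGGAG in 27 (11.2%, against 8.09%), the forkhead word TGTTTAC in 9 (3.72%, against 4.75%) and the Maf word TGCTGAC in 22 (9.09%, against 5.67%). Among the 39 members open in at least 5% of podocytes, a limit chosen after the values were seen, TAATTA occurred in 11 (28.2%), against 4.80% of all 19855 such peaks with sequence. In these 39 the other words were at 25.6% for CAGCTG (against 22.3%), 5.13% for GTGGGAG (against 13.3%), 2.56% for TGTTTAC (against 3.82%) and 7.69% for TGCTGAC (against 5.95%). Lmx1b peaks held CAGCTG in 17 of 52 cases and GTGGGAG in 13 of 52. Neighbouring peaks of 1 gene are not independent, and peaks of the Foxc2 and Foxl1 locus are counted for both genes where genes are named.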

How the data were processed

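Per the labels, 5 libraries of single kidney nuclei were read by snATAC-seq (P0, 2; P21, 1; P56, 2). The authors aligned the reads with Cell Ranger ATAC 1.1.0 to mm10, called peaks with MACS2 and deposited a matrix of peaks by nuclei, used here as counts, together with cluster names and sample names for each nucleus; its entries are binary, so the deposited counts record open or not open. Doublets were not searched here, and the deposited annotation was taken as it stands.

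The members and gene lists were chosen with earlier results of these data known. Genes were placed with GENCODE M21. Open calls were summed per sample and cluster for sums of at least 20 nuclei. Stage changes, and their difference between clusters with the sample as a block, were tested by quasi-likelihood in edgeR 4.0.16 (R 4.3.3, TMM, filterByExpr at count 10 and total 15) and BH adjustment at 0.05 over all peaks or windows. Alternatives were DESeq2 1.42.0, its size factors, no filter, sums of at least 50 nuclei, nuclei thinned to 1000 open peaks (by the mean over random draws), a replicate block and leaving out each sample. The thinned sums are rounded expected values, so they lack the variation of single draws. The model was tested on simulated data. Shares, intervals and figures used Python 3.11.15, numpy 2.4.6, pandas 2.3.3, scipy 1.17.1 and matplotlib 3.10.9. Exact intervals are at the 95% level.

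Peaks named are the peak over or nearest to each start, the 3 peaks per gene with the highest mean podocyte share, and those passing BH in the podocyte stage test. From the lists, at most 8 genes past the threshold with the smallest p are named, besides Nphs1. Some genes of the lists are not reported here. The most alike genes are the 5 with the highest r (prior count 2, at least 200 open calls), leaving out genes within 100 kb of the member.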

Additional observations from a re-analysis of the deposited data

Results flagged for a closer look

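Results are given here where the stage change of podocytes differed from that of another cluster by the interaction test of edgeR with BH adjustment, or where a signal appeared in nuclei outside the comparisons. Against nephron progenitors, the difference was called for the windows of Lmx1b (adjusted p = 2.1e-20), Wt1 (1.2e-15), Tcf21 (9.7e-09), Foxl1 (6.4e-09) and Foxc2 (0.012). It was called for the Wt1 peaks at +0.4 kb (adjusted p = 7.9e-12), −63.2 kb (7.5e-04), −28.9 kb (0.0019) and −57.1 kb (0.012), the Tcf21 peaks at +0.3 kb (1.0e-06) and −48.6 kb (1.2e-04), the Lmx1b peak at +34.7 kb (1.1e-07), the Foxc2 start (0.0063) and the peak between Foxc2 and Foxl1 (3.0e-07). In each case the P0 minus adult change was smaller in podocytes. The Foxc2 window and the Foxc2 start are the same open calls and thus 1 result. A window or peak could pass the low-sum filter of this fit through 1 cluster and stage alone, as the Wt1 −57.1 kb peak did through adult podocytes. Without the P21 sample, adjusted p was 0.124 for Wt1 −63.2 kb, 0.120 for Wt1 −28.9 kb, 0.105 for Wt1 −57.1 kb and 0.185 for the Foxc2 start. Without P56 replicate 1 it was 0.166 for Wt1 −28.9 kb, 0.145 for Wt1 −57.1 kb and 0.202 for the Foxc2 start, and without P56 replicate 2 0.133 for Wt1 −63.2 kb and 0.138 for Wt1 −57.1 kb. Without P0 replicate 1 it was 0.082 for Wt1 −57.1 kb. The adult side of these differences rests on 52, 90 and 53 nuclei per sample that carry the progenitor name without its markers at their P0 level.

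Against stroma 2 the difference was called for the windows of Lmx1b (adjusted p = 1.8e-25), Wt1 (0.0029) and Foxl1 (0.0078) and for the Foxl1 start peak (0.0090), where stroma 2 fell from 18.3% to 3.29% of nuclei open and podocytes had 4.03% at P0 and 8.88% in adult.

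Of the nuclei outside the 13 clusters, those the annotation names PT_out had the Wt1 start peak open in 61 of 446 (13.7%), and in 19.0% and 26.9% by P0 sample, 15.4% at P21 and 5.66% and 8.40% by P56 sample, with a median of 6284 open peaks per nucleus, against 3648 in podocytes.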

How the results depend on the processing

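Windows were tallied in every test run, but named peaks only in tests where the main fit called them. A peak could thus lose a call but not gain one, and the signs of uncalled peaks were not tallied. Of 691 values for single genes and peaks under the alternatives, 567 kept their direction and their side of the threshold, 106 lost and 4 gained a call, and 14 changed sign, all of the latter in windows that were not called. These were Wt1 in podocytes (−0.01 with sums of at least 50 nuclei, −0.10 without P56 replicate 2), Foxl1 in podocytes (0.23 with at least 50 nuclei, 0.10 without the P21 sample, 0.07 with the replicate block), and Foxc1 in podocytes (0.02 with at least 50 nuclei and without P0 replicate 2, 0.07 without the P21 sample, 0.11 with the block), in nephron progenitors (0.03 without P0 replicate 1), in stroma 1 (0.01 without P56 replicate 1) and in the interaction with nephron progenitors (0.22 with at least 50 nuclei, 0.12 without P0 replicate 2, 0.19 without the P21 sample). With a sample left out the podocyte ranges were −0.10 to 0.18 for Wt1, −0.33 to 0.10 for Foxl1 and −0.31 to 0.07 for Foxc1, and for Foxc1 −0.15 to 0.03 in nephron progenitors, −0.29 to 0.01 in stroma 1 and −0.27 to 0.19 in the interaction. The cause was not tested. The interaction calls of the Lmx1b window against both clusters and of the Wt1 and Tcf21 windows against nephron progenitors were kept under every alternative run. With sums of at least 50 nuclei the adult podocytes are 1 sample (P56 replicate 1), which is taken to vary like the other sums.

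The 4 peaks called in podocytes were 1 with DESeq2, beside 0.658% of all peaks higher at P0 and 2.99% higher in adult, and 9 without a filter (2.17% and 0.324%). After thinning 0 were called (0% and 0.469%), and none of the 4 was tested. At most 4 were called with an adult sample left out (2.05% to 3.06% and 3.97% to 5.17%). Fewer than 4 passed with at least 50 nuclei, a setting that leaves 1 adult sample. Without a filter the count was 113 of 242 in nephron progenitors (112 higher at P0, beside 18.2% of all peaks), 53 of 239 in stroma 1 (53, beside 10.1%), 50 of 241 in stroma 2 (43, beside 13.5%) and 17 of 233 in endothelial cells (17, beside 4.38%). Of all peaks 2.27%, 2.01%, 3.76% and 1.28% were called higher in adult in these clusters. All peaks leaned to P0 there, with a median log2 fold change of 2.11, 1.21, 0.585 and 0.468. After thinning, no member peak was tested in nephron progenitors and stroma 1. There 5 of 16 were called in stroma 2 (beside 11.3% of all peaks higher at P0 and 12.2% higher in adult) and 0 of 6 in endothelial cells (3.38% and 4.74%). Of the windows 2 of 2 were called in nephron progenitors (25.1% and 20.2% of all windows), 4 of 6 in stroma 2 (11.8% and 9.83%) and 1 of 4 in endothelial cells (7.33% and 4.00%), with none tested in stroma 1. DESeq2 called 2 peaks in endothelial cells, beside 4.89% of all peaks higher at P0 and 5.85% higher in adult. The number of peaks tested changed with the sample left out, in nephron progenitors from 12953 to 83051. With an adult sample left out, 19.2% to 26.4% of all peaks were called higher at P0 there and 9.38% to 12.4% higher in adult. These shares were 17.4% to 23.9% and 8.49% to 16.3% in stroma 1. They were 20.1% to 24.6% and 16.8% to 19.6% in stroma 2, and 13.8% to 18.2% and 13.1% to 18.7% in endothelial cells. The counts that follow are thus a description. Leaving out a sample gave 6 to 68 peaks in nephron progenitors, 6 to 27 in stroma 1, 11 to 46 in stroma 2 and 0 to 12 in endothelial cells, and 0 to 1 windows in podocytes, 2 to 5 in stroma 2 and 0 to 3 in endothelial cells.

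For the interaction with nephron progenitors, 1 peak was called after thinning, beside 0.247% of all peaks smaller and 0% larger in podocytes. There 3 windows were called (3.13% and 1.44% of all windows). Without P56 replicate 1, 9 peaks were called (0.654% and 0.608%). Without the P21 sample (1.53% and 1.45%) or P56 replicate 2 (1.77% and 1.33%) at most 14 were. For that with stroma 2, DESeq2 called 2 peaks (beside 0.471% of all peaks smaller and 0.171% larger in podocytes) and 1 window (1.58% and 0.398% of all windows). Without a filter 2 peaks were called (0.0528% and 0.411%). After thinning 0 peaks (0.0154% and 0%) and 1 window (0.883% and 0.157%) were called. With an adult sample left out it was 0 to 2 peaks (0.246% to 0.525% and 0.497% to 0.895%).

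Over peaks, the difference between replicates 1 and 2 of P0 was correlated with that of P56 at r = 0.04 to 0.114 in the clusters tested. With 1 such difference per stage, this cannot decide whether same-numbered samples were paired. The paper gives each of these samples a batch number of its own, and none is shared by P0 and P56 samples. The replicate block thus rests on the sample numbers of the labels alone. The fit with the replicate block held the P0 and P56 samples only, so it also left out the P21 sample. Without that sample alone, 68 peaks were called in nephron progenitors, beside 26.4% of all peaks higher at P0 and 12.4% higher in adult. With the replicate block 1 peak was called in podocytes, beside 1.98% of all peaks higher at P0 and 4.29% higher in adult. It called 45 in nephron progenitors (15.9% and 10.7% of all peaks), 16 in stroma 1 (15.6% and 9.80%) and 12 in endothelial cells (15.9% and 13.4%). The members numbered 141 within 50 kb and 666 within 300 kb. In whole peaks the forkhead word occurred in 18 members, GTGGGAG in 46 and TAATTA in 42. The smallest adult podocyte sample held 39 nuclei.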

Other observations

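In the nuclei that the annotation names NP_LOH, left out of the 13 clusters, the Foxc1 start peak was open in 28.9% of 218 nuclei and the Wt1 start peak in 1 nucleus (0.459%). All but 1 of these nuclei came from adult samples. In PT_out the Foxc1 start was open in 17.7% of 446 nuclei.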
